A study of Mus musculus with 18 samples.

Results

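The transcripts of 10 genes of the NF-kB system were followed in bone marrow-derived macrophages (BMDMs) by RNA-seq. The genes were chosen by name as the subunits and the inhibitors of the factor, with earlier results of these data known. All 10 were found among the 20615 genes of the count table. They were the 5 subunits Nfkb1, Nfkb2, Rel, Rela and Relb, the IkB inhibitors Nfkbia, Nfkbib and Nfkbie, the nuclear IkB protein gene Nfkbiz, and Tnfaip3, which encodes the ubiquitin-editing enzyme A20. All 10 also passed the filter on low counts that left 15789 genes for testing, and the lowest estimated count of any of them in any sample was 487.

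The study asked how BMDMs of a mouse model of Sjögren's syndrome answer apoptotic cells. It had 18 samples, 3 in each of 6 groups. The control strain was C57BL/6 (B6), and the model was C57BL/6.NOD-Aec1Aec2, here called SjSS, which carries the NOD intervals Aec1 and Aec2 on a B6 background. All mice were female and 7 to 12 weeks old, and the marrow of both strains was grown for 7 days with L929 cell supernatant, a source of M-CSF, which by the labels was kept at a lower share during treatment. Control BMDMs were left untreated. AC treated BMDMs received 5 apoptotic cells per BMDM for 2 h, were washed, and were kept for 3 h more by the labels, or 4 h by the study's methods. The apoptotic cells were thymocytes killed with dexamethasone. The study took thymi from both strains, and its methods do not state which strain's thymocytes were given in the RNA-seq. If each strain received its own, the strain of the BMDMs and that of the apoptotic cells cannot be told apart after ACs. CpG treated BMDMs received 1 µM CpG DNA, a ligand of the receptor TLR9, for 6 h. By the labels the AC and CpG arms thus differed in time, and both were set against the same untreated samples of their strain. The 3 samples of a group came from 3 mice by the study's description, so that the p-values measure the spread between these samples. The study's figure legend names 3 mice per strain, so that the groups of a strain may share their mice, and the main fit did not pair the samples.

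Total estimated counts ran from 30688336 to 57139662 per sample. All 10 macrophage markers checked, Csf1r and Adgre1 among them, were detected in every group, with summed levels of 16079 to 24046 CPM, the count of a gene scaled to the library size. The T cell receptor genes Cd3d, Cd3e, Cd3g and Trac were close to 0 in every group, at 0.127 CPM or less on average. The summed level of 19 T lineage genes was 27.6 to 34.6 CPM in AC treated B6 BMDMs against 72.7 to 89.2 in their controls, and 45.1 to 49.6 against 67.4 to 84.1 in SjSS BMDMs, most of it from Cd28 and Cd4. Some scarce genes of the list went up after ACs, such as Tcf7, from 0.176 to 0.460 CPM in B6 and 0.157 to 0.376 in SjSS BMDMs. Rag1 averaged 0.163 and 0.0231 CPM after ACs and 0 in the controls and after CpG. Of the 8 tested, 2 rose and 3 fell after ACs in B6 by edgeR, and 2 rose and 2 fell in SjSS BMDMs. Whether thymocyte RNA was carried over was not tested. The summed level of 12 genes induced by glucocorticoids was 581 to 599 CPM against 459 to 507 in B6 and 767 to 879.8 against 443 to 539 in SjSS BMDMs, and after CpG, with no dexamethasone, it was 704 to 734 and 537 to 581. By edgeR 4 of the 12 rose and 3 fell after ACs in B6 BMDMs, and 4 rose and 4 fell in SjSS BMDMs. The part of this list in the AC responses was not tested. Summed levels of 5 fibroblast genes, Col1a1 foremost, were 19.6 to 65.2 CPM over the B6 samples and 71.9 to 112 over the SjSS samples, and their part in the strain differences was not tested. Lists for B cells, neutrophils and dendritic cells summed to 9.41 to 26.8, 32.3 to 88.5 and 0.801 to 3.57 CPM over all samples. The scaling factors that edgeR set (TMM) were 0.833 to 0.838 in the AC treated SjSS samples and 1.10 to 1.13 in their controls. Without them the median of all genes in that comparison moved by -0.41 on the log2 scale, and the fold changes given here are relative to the scaled libraries.

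NF-kB is a family of dimeric transcription factors that macrophages use to switch on inflammatory genes. In resting cells most dimers are held in the cytoplasm by IkB proteins, and signals from Toll-like receptors lead to a kinase that marks IkB for destruction, so that the dimers enter the nucleus. Among the genes they switch on are their own subunits and inhibitors, which form the feedback loops for which the system is known. Rela and Rel encode subunits with a transactivation domain that serve the canonical pathway, Relb is the partner in the noncanonical pathway, and Nfkb1 and Nfkb2 encode precursors that are trimmed to DNA-binding subunits and can act as inhibitors themselves.

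To show the sequence these feedback loops are known to use, the 250 bases before each RefSeq start of a gene were searched on both strands for the kB consensus, a 10-base motif named after the factor. RefSeq promoters (GRCm38.p6) were at hand for 7 members, and those of Nfkb1, Relb and Nfkbiz were not in the table. The motif was found in 5 of the 7 (71.4%), Nfkbia, Nfkbie, Nfkb2, Rel and Tnfaip3, and not in Rela or Nfkbib. Of 27025 genes in the table, 4.46% had a match. The sequences below read 5′ to 3′ on the gene's strand, with the match in capitals, and show 1 match in each of the 5 genes, Nfkbia with all 250 bases. Further matches were found upstream of Nfkb2 and Tnfaip3, and the matches shown for Nfkb2 and Rel each overlap a second one on the other strand. The match shown for Nfkbia fits the motif on the other strand, where it reads GGGAATTTCC. A match describes the letters of the window and no binding was measured.
Nfkbia, minus strand, chr12:55492648-55492897: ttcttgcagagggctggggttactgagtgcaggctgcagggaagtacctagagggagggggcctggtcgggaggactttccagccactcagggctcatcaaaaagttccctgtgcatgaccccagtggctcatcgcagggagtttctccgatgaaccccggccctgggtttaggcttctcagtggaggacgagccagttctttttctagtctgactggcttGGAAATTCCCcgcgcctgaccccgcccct
Nfkbie, plus strand, chr17:45555584-45555613: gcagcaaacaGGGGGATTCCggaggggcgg
Nfkb2, plus strand, chr19:46304688-46304717: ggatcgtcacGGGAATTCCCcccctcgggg
Rel, minus strand, chr11:23771042-23771071: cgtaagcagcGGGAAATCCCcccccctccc
Tnfaip3, minus strand, chr10:19015516-19015545: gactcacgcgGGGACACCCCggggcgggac

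In SjSS BMDMs, ACs raised all 10 transcripts, and 9 of them, all but Rela, rose by more than 1.3 on the log2 scale. A gene is said here to have risen or fallen where edgeR's quasi-likelihood test gave an adjusted p under 0.05, and to be called where its log2 fold change was also over 1.3 in size, the thresholds of the study's methods. In the same comparison 7.09% of all tested genes were called higher and 28.6% rose by the test alone. In B6 BMDMs, ACs raised 9 members, all but Rel, and 3 were called, Nfkb2, Nfkbie and Tnfaip3, against 2.43% of all genes called higher and 20.0% that rose. The median log2 fold change of the members was 2.42 in SjSS and 1.21 in B6 BMDMs, with medians of -0.0166 and 0.00149 over all genes tested. After CpG all 10 members rose in both, with 8 called in B6 (all but Rel and Rela; 5.86% of all genes) and 7 in SjSS BMDMs (all but Rel, Rela and Nfkbib; 4.81% of all genes), and the medians were 1.62 and 2.09. By the test alone 28.1% and 27.8% of all genes rose after CpG in B6 and SjSS. Replicate 1 of the AC treated B6 samples had the lowest value of its group for all 10 members, and without it 5 members were called in that comparison. In bulk RNA, a change in the cells that carry a transcript and a change in the amount per cell cannot be told apart.

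**Figure D1:**
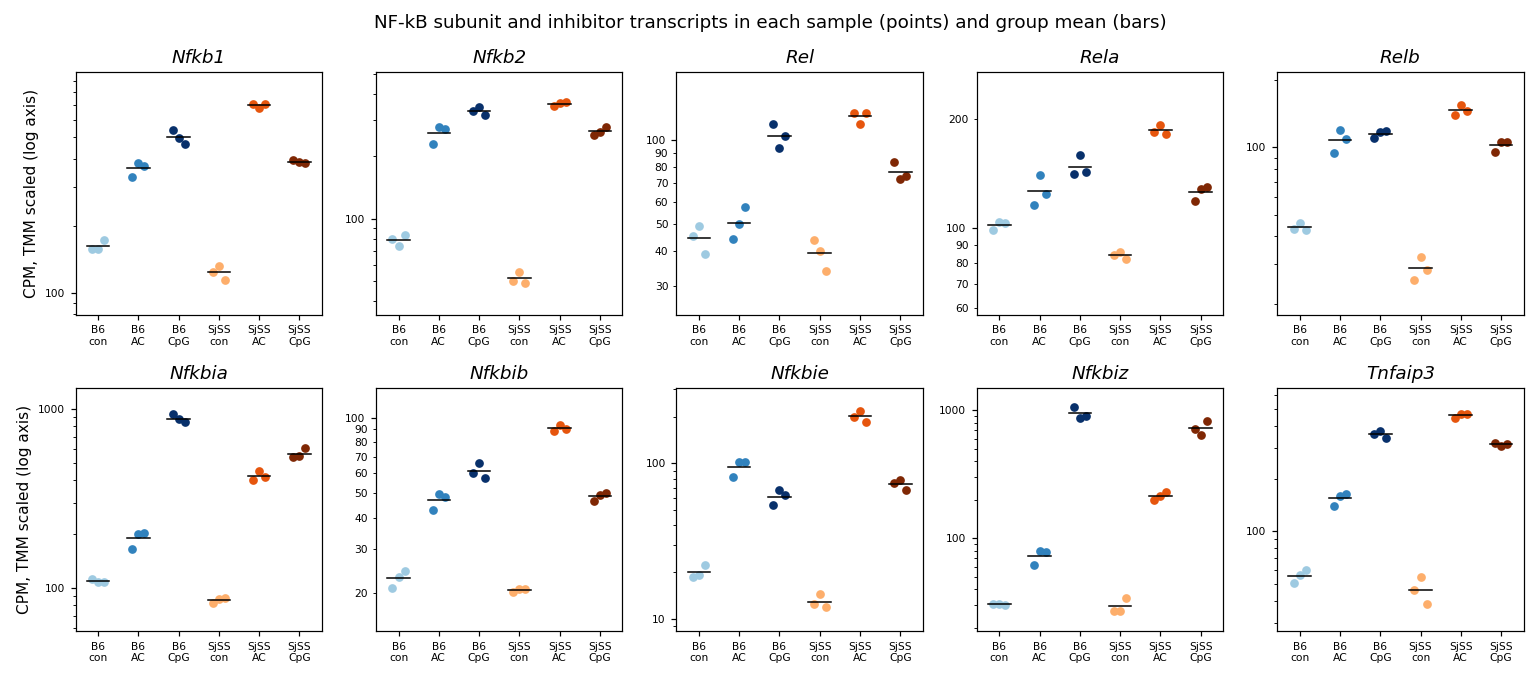
Level of each of the 10 genes in every sample, in CPM on a log axis, with 3 samples (points) and their mean (bar) for control (con), AC treated and CpG treated BMDMs of B6 and SjSS mice. The AC treated SjSS samples had the highest mean for 8 genes and the CpG treated B6 samples for Nfkbia and Nfkbiz.

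**Figure D2:**
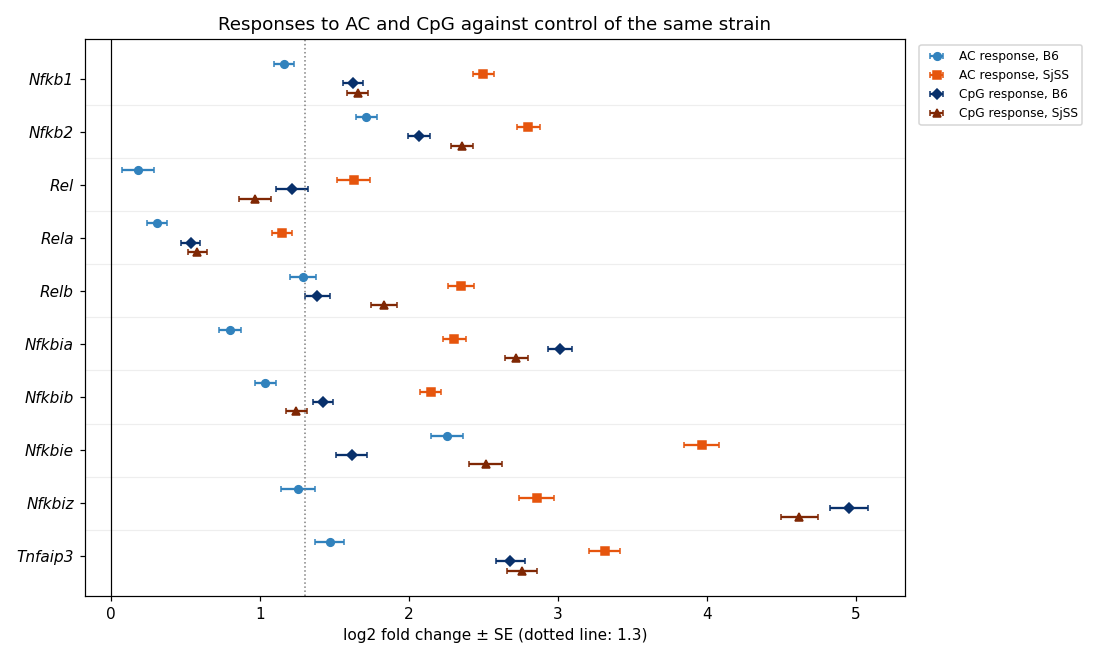
Log2 fold change with its standard error (SE) for each of the 10 genes after ACs or CpG, each against untreated BMDMs of the same strain, from a fit of 18 samples. The dotted line marks 1.3. The AC response of SjSS BMDMs lies to the right of that of B6 BMDMs for all 10 genes, and the largest values are those of Nfkbiz after CpG, 4.95 and 4.62.

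Among the subunits, Nfkb1 (chr3:135584655-135691548 in mm10, minus strand), on the chromosome that carries Aec1, took the largest share of the subunit transcripts per length in 5 of the 6 groups, all but the SjSS controls, by the length of the principal transcript (by the union of exons Rela or Nfkb2 held the largest share in each group). The study does not give the limits of Aec1, and whether Nfkb1 lies within it was not tested. In B6 BMDMs Nfkb1 stood at 157, 157 and 173 CPM in the controls (replicates 1, 2 and 3, as in all lists of values here), 333, 384 and 373 after ACs and 538, 497 and 466 after CpG. In SjSS BMDMs Nfkb1 stood at 124, 132 and 114 CPM in the controls, 705, 682 and 704 after ACs and 395, 389 and 382 after CpG. All treated samples were above the controls of their strain, but the higher treatment was CpG in B6 and AC in SjSS BMDMs, with no overlap in either. The log2 fold change after ACs was 1.16 (SE 0.0684, adjusted p = 2.11e-10) in B6 and 2.50 (SE 0.0714, adjusted p = 1.22e-15) in SjSS BMDMs by edgeR. After CpG it was 1.62 (SE 0.0692, adjusted p = 3.34e-13) and 1.66 (SE 0.0695, adjusted p = 4.12e-13).

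Nfkb2 (chr19:46304737-46312091, plus strand) was the most responsive subunit in all 4 responses. In B6 BMDMs Nfkb2 read 79.6, 74.2 and 83.5 CPM in controls, 230.5, 277 and 271 after ACs and 332, 345 and 317 after CpG. The SjSS samples gave 50.1, 55.5 and 49.3 CPM untreated, 349, 364 and 366 after ACs and 253, 262 and 277 after CpG. The SjSS controls were all below the B6 controls, and the AC treated SjSS samples were all above every other group. By edgeR the AC response was 1.71 (SE 0.0708, adjusted p = 2.54e-12) in B6 and 2.80 (SE 0.0739, adjusted p = 4.93e-16) in SjSS BMDMs, and the CpG response was 2.07 (SE 0.0715, adjusted p = 2.05e-14) and 2.36 (SE 0.0728, adjusted p = 6.14e-15). Relb (chr7:19606217-19629439, minus strand), whose protein pairs with that of Nfkb2, ran from 42.9 to 46.1 CPM in B6 controls to 94.3 to 119 after ACs and 110.0 to 118 after CpG, and from 25.5 to 32.5 in SjSS controls to 139.9 to 155 and 95.2 to 106. The AC and CpG treated B6 samples overlapped for Relb, while in SjSS BMDMs all AC treated samples were above the CpG treated ones. The edgeR log2 fold change of Relb after ACs was 1.29 (SE 0.0851, adjusted p = 9.65e-10) in B6, just under the 1.3 threshold, and 2.35 (SE 0.0886, adjusted p = 4.41e-14) in SjSS BMDMs. After CpG it was 1.39 (SE 0.0853, adjusted p = 5.95e-11) and 1.83 (SE 0.0876, adjusted p = 2.41e-12).

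Rel (chr11:23736847-23770971, minus strand), which encodes c-Rel, was the member whose AC response did not pass the test in B6 BMDMs. In B6 BMDMs Rel gave 45.1, 49.3 and 39.2 CPM in the controls and 44.1, 50 and 57.4 after ACs, with overlapping groups, and 114, 93.4 and 103 after CpG. In SjSS BMDMs Rel gave 43.8, 40.1 and 33.8 CPM in the controls, 125, 114 and 125 after ACs and 83.2, 72.6 and 73.9 after CpG, with no overlap between any of the 3. The AC response was 0.18 (SE 0.107, adjusted p = 0.202) in B6 BMDMs, which did not pass edgeR's test, and 1.63 (SE 0.109, adjusted p = 1.78e-10) in SjSS BMDMs. CpG raised Rel by 1.22 (SE 0.107, adjusted p = 1.04e-08) and 0.97 (SE 0.108, adjusted p = 3.49e-07), below the fold threshold in both strains.

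Rela (chr19:5637483-5648131, plus strand), the main transactivating subunit of the canonical dimer, had the narrowest range of group means. In B6 BMDMs Rela read 98.9, 104 and 103 CPM untreated, 116, 139.8 and 124 after ACs and 141, 159 and 143 after CpG. In SjSS BMDMs Rela read 84.3, 86 and 82.1 CPM untreated, 184, 193 and 182 after ACs and 119, 128 and 129.7 after CpG. All treated samples lay above their controls, and the ratio of the highest to the lowest group mean was 2.21, against 3.09 for Rel, the next lowest, and 32.0 for Nfkbiz. The log2 fold changes by edgeR were 0.31 (SE 0.0643, adjusted p = 0.000768) and 1.15 (SE 0.0651, adjusted p = 1.53e-11) after ACs and 0.54 (SE 0.0643, adjusted p = 7.11e-07) and 0.58 (SE 0.0647, adjusted p = 3.48e-07) after CpG, in B6 and SjSS BMDMs.

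The make-up of the subunit pool was then described. Since the transcripts differ in length, shares were taken from CPM per kilobase (kb) of the principal transcript. The 5 subunits together came to 128 ± 3.05 CPM per kb in B6 controls (SD, n = 3, as for all means here), 273 ± 24.7 after ACs and 347 ± 11.6 after CpG. In SjSS BMDMs they came to 95.7 ± 5.41, 435 ± 4.27 and 281 ± 6.25. Rela made up 29.3% ± 0.596 of the pool in B6 controls and 32.4% ± 1.09 in SjSS controls. It made up 17.1% ± 0.654 after ACs and 15.7% ± 0.899 after CpG in B6, and 15.8% ± 0.467 and 16.4% ± 0.427 in SjSS BMDMs, although its own level was higher there than in the controls. The share of Nfkb2 was 19.7% ± 0.980 in B6 controls, 30.3% ± 0.528 after ACs and 30.4% ± 0.538 after CpG. In SjSS BMDMs it was 17.2% ± 0.270, 26.3% ± 0.431 and 29.9% ± 0.803. Nfkb1 held 30.8% ± 1.12 and 31.3% ± 0.823 in the controls of B6 and SjSS, and its highest share, 38.9% ± 1.03, was in AC treated SjSS BMDMs. Relb stayed between 13.6% and 17.8% and Rel between 2.48% and 5.49% of the pool over the 6 groups. These shares were not tested, and they depend on the length used for each gene.

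**Figure D3:**
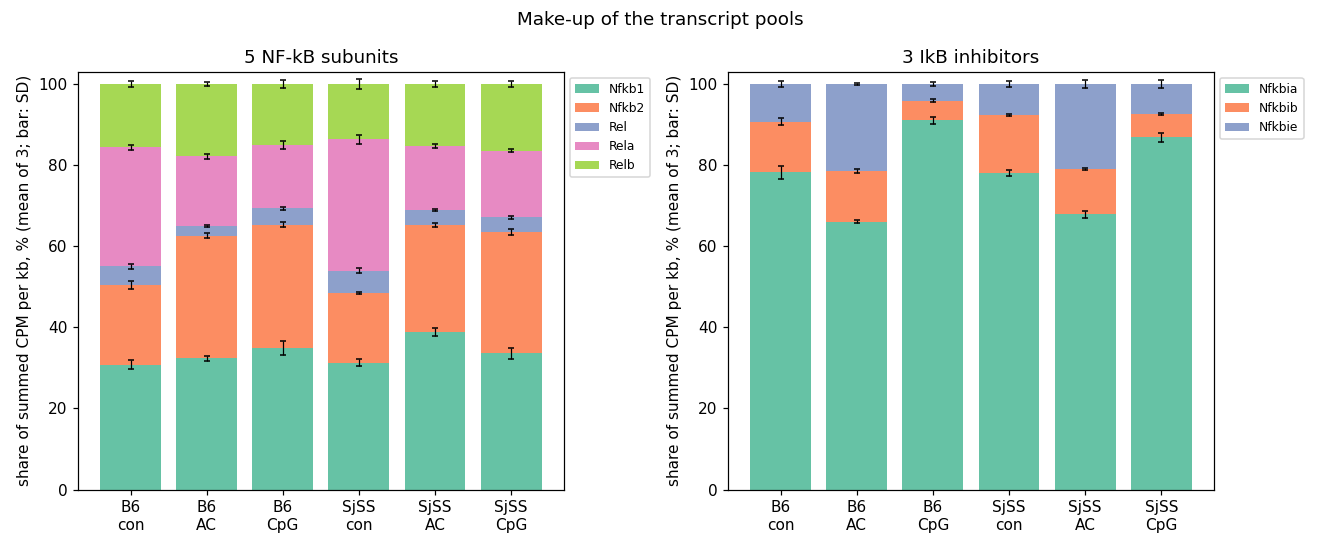
Share of each gene in the summed CPM per kb of the 5 NF-kB subunits (left) and of the 3 IkB inhibitors (right), in percent, as stacked bars that start at 0, with the mean of 3 samples per group and bars for the SD. The share of Rela is smaller in all 4 treated groups than in both control groups, and Nfkbie takes its largest shares, 21.5% ± 0.310 and 20.9% ± 0.968, after ACs.

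Nfkbia (chr12:55489411-55492648, minus strand) encodes IkB-alpha, the inhibitor that is made anew within the first wave of NF-kB activity. In B6 BMDMs Nfkbia read 112, 108 and 108 CPM in controls, 165, 201 and 204 after ACs and 933, 879 and 840.1 after CpG. In SjSS BMDMs Nfkbia read 82.1, 86.5 and 87.6 CPM in controls, 401, 449 and 415 after ACs and 539.5, 543 and 605 after CpG. All 6 groups were apart from their neighbours, and CpG gave the higher level in both strains, unlike for Nfkb1. The AC response was 0.80 (SE 0.0735, adjusted p = 8.31e-08) in B6 and 2.30 (SE 0.0765, adjusted p = 7.23e-15) in SjSS BMDMs by edgeR. The CpG response was 3.01 (SE 0.0783, adjusted p = 6.61e-16) and 2.72 (SE 0.0777, adjusted p = 2.15e-15).

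Nfkbib (chr7:28758251-28767513, minus strand), which encodes IkB-beta, had a narrower range than Nfkbia, with a ratio of highest to lowest group mean of 4.43 against 10.4. It ran from 21 to 24.5 CPM in B6 controls to 42.8 to 49.6 after ACs and 57.4 to 66.4 after CpG, and from 20.2 to 20.9 in SjSS controls to 89.1 to 93.9 and 46.8 to 50. The AC treated SjSS samples were above all others. The log2 fold change by edgeR was 1.04 (SE 0.0689, adjusted p = 1.04e-09) and 2.15 (SE 0.0706, adjusted p = 6.56e-15) after ACs and 1.42 (SE 0.0691, adjusted p = 1.96e-12) and 1.24 (SE 0.0700, adjusted p = 2.25e-11) after CpG, in B6 and SjSS BMDMs.

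Nfkbie (chr17:45555716-45563170, plus strand) encodes IkB-epsilon, an inhibitor known for a delayed feedback. It had the largest AC response of the 10 genes in both strains. In B6 BMDMs Nfkbie read 18.7, 19.1 and 22.2 CPM untreated, 82, 103 and 102 after ACs and 53.9, 67.5 and 62.6 after CpG. In SjSS BMDMs Nfkbie read 12.4, 14.4 and 12 CPM untreated, 199.6, 218 and 185 after ACs and 74.4, 78.8 and 67.5 after CpG. It was the only member with a higher level after ACs than after CpG in both strains, without overlap of the samples. By edgeR it rose by 2.25 (SE 0.107, adjusted p = 1.72e-11) in B6 and 3.96 (SE 0.115, adjusted p = 1.48e-15) in SjSS BMDMs after ACs, and by 1.61 (SE 0.106, adjusted p = 1.44e-10) and 2.51 (SE 0.111, adjusted p = 7.61e-13) after CpG.

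The 3 IkB inhibitors together came to 88.7 ± 0.903 CPM per kb in B6 controls, 182 ± 20.1 after ACs and 615 ± 28.6 after CpG. The SjSS groups gave 69.4 ± 2.16, 394 ± 22.3 and 410.4 ± 22. Nfkbia made up 78.2% ± 1.65 of this pool in B6 and 78% ± 0.726 in SjSS controls. After ACs its share was 66% ± 0.361 and 67.8% ± 0.881, and after CpG 91.1% ± 0.871 and 86.8% ± 1.09. The share of Nfkbie went from 9.26% ± 0.803 and 7.65% ± 0.687 in the controls to 21.5% ± 0.310 and 20.9% ± 0.968 after ACs, and to 4.11% ± 0.578 and 7.39% ± 0.906 after CpG. The inhibitor pool of AC treated BMDMs was thus richer in Nfkbie and that of CpG treated BMDMs richer in Nfkbia, in both strains, with no test run on the shares.

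Nfkbiz (chr16:55811375-55838900, minus strand) encodes IkB-zeta, a nuclear IkB protein that binds DNA-bound dimers and is needed for a group of secondary response genes such as Il6. In B6 BMDMs Nfkbiz read 30.9, 30.6 and 30.2 CPM in controls, 61.9, 79.1 and 78.1 after ACs and 1064, 875 and 899 after CpG. In SjSS BMDMs Nfkbiz read 27.2, 27.1 and 34.3 CPM in controls, 198, 215 and 230.4 after ACs and 721, 641 and 819 after CpG. The controls of the strains overlapped, and CpG gave levels far above those after ACs in both. CpG raised Nfkbiz 30.9-fold in B6 and 24.6-fold in SjSS BMDMs, log2 fold changes of 4.95 (SE 0.128, adjusted p = 6.61e-16) and 4.62 (SE 0.127, adjusted p = 1.32e-15) by edgeR. The AC response was 1.26 (SE 0.113, adjusted p = 6e-08) and 2.86 (SE 0.118, adjusted p = 1.43e-13).

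Tnfaip3 (chr10:19000910-19015658, minus strand), whose product A20 removes ubiquitin chains from signalling proteins upstream of the IkB kinase, was among the most responsive. In B6 BMDMs Tnfaip3 read 50.7, 56.3 and 60.4 CPM untreated, 139, 159.5 and 164 after ACs and 362, 372 and 339.6 after CpG. In SjSS BMDMs Tnfaip3 read 46, 54.7 and 38.5 CPM untreated, 444, 469.9 and 466 after ACs and 318, 307 and 315 after CpG. The AC treated samples were below the CpG treated ones in B6 and above them in SjSS BMDMs. The edgeR log2 fold change was 1.47 (SE 0.0955, adjusted p = 8.11e-10) and 3.31 (SE 0.102, adjusted p = 2.66e-15) after ACs, and 2.68 (SE 0.0989, adjusted p = 4.79e-14) and 2.76 (SE 0.0998, adjusted p = 5.34e-14) after CpG.

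Set directly against each other, ACs left most members below CpG in B6 BMDMs and above it in SjSS BMDMs. In B6, 8 members were lower after ACs than after CpG, as were 22.4% of all genes, and 1, Nfkbie, was higher. The called ones were Nfkbia at -2.22 (SE 0.0758, adjusted p = 1.15e-13) and Nfkbiz at -3.69 (SE 0.120, adjusted p = 6.99e-14), against 3.47% of all genes called lower. Relb was the one that did not pass the test, at -0.10 (SE 0.0831, adjusted p = 0.369), and Rela no longer passed without replicate 1 of AC treated or replicate 2 of CpG treated B6 BMDMs (edgeR adjusted p = 0.0575 and 0.0539) or with library totals (0.117). In SjSS, 8 members were higher after ACs, as were 25.7% of all genes, and 2, Nfkbia and Nfkbiz, were lower. The called ones were Nfkbie, higher by 1.45 (SE 0.101, adjusted p = 6.82e-10), and Nfkbiz, at -1.76 (SE 0.111, adjusted p = 1.57e-10), against 9.18% of all genes called in either direction, and with library totals 1 was called. The median of the members was -0.42 in B6 and 0.56 in SjSS BMDMs. By the labels the arms differed in time as well as in agent.

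Before treatment, 6 members were lower in SjSS than in B6 BMDMs by edgeR's test and 0 were called, which by the test alone compares with 10.6% of all genes lower (0.716% called). At an unadjusted p under 0.05 there were 8, and DESeq2 passed 7 and called 0. The 6 were Nfkb2 at -0.62 (SE 0.0705, adjusted p = 6.56e-06), Relb at -0.61, Nfkbie at -0.64, Nfkb1 at -0.39, Nfkbia at -0.36 and Rela at -0.28. Rel, Nfkbib, Nfkbiz and Tnfaip3 gave -0.18, -0.15, -0.05 and -0.27, and did not pass, although Tnfaip3 did so without replicate 1 of the B6 controls or replicate 2 of the SjSS controls (edgeR adjusted p = 0.0374 and 0.00509). After ACs the order was the other way round. All 10 members were higher in SjSS BMDMs, where 24.0% of all genes were, and 2 were called, Tnfaip3 at 1.58 (SE 0.0945, adjusted p = 7.88e-11) and Nfkbiz at 1.55 (SE 0.111, adjusted p = 1.01e-09), against 6.24% of all genes. Rel, at 1.26, was just below the threshold, and the other 7 gave 0.45 (Relb) to 1.15 (Nfkbia). The samples of the strains were apart after ACs for all 10, as they were for 60.7% of all genes. With library totals in place of the scaling factors, no member was called in this comparison, and 9 were still higher by the test, all but Relb (adjusted p = 0.12).

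After CpG, 7 members were lower in SjSS BMDMs by the test and 0 were called, against 9.57% of all genes lower and 2.61% called in either direction. At an unadjusted p under 0.05 there were 8, of which 7 were lower and 1, Nfkbie, higher in SjSS BMDMs. DESeq2 passed 7 and called 0. Of the 7 lower by edgeR's test, Nfkbia gave the largest difference, at -0.65 (SE 0.0726, adjusted p = 3.96e-06), and the other 6 gave -0.43 (Rel) to -0.24 (Rela). Relb, Tnfaip3 and Nfkbie, at -0.17, -0.19 and 0.26, did not pass. Nfkbiz no longer passed without replicate 1 of CpG treated B6 BMDMs or replicate 1 or 2 of CpG treated SjSS BMDMs (edgeR adjusted p = 0.0951, 0.0541 and 0.0968), nor Rela without replicate 2 of CpG treated B6 or replicate 1 of CpG treated SjSS BMDMs (0.0875 and 0.075), and both missed it with library totals (0.06 and 0.101). Nfkbie passed, as higher in SjSS BMDMs, with library totals (0.0143) or when the second of the B6 CpG replicates was left out (0.0474).

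Whether the responses themselves differed between the strains was tested as an interaction. The AC response was larger in SjSS than in B6 BMDMs for all 10 members by edgeR's test, and for 6 of them by more than 1.3 on the log2 scale, Nfkb1, Rel, Nfkbia, Nfkbie, Nfkbiz and Tnfaip3. Of all genes, 19.6% had a larger response by the test and 4.76% were called. The differences ran from 0.84 (SE 0.0910, adjusted p = 6.69e-07) for Rela to 1.85 (SE 0.134, adjusted p = 3.58e-09) for Tnfaip3, with a median of 1.39. With library totals the median was 1.05, all 10 still passed and 2 were called. For CpG, 2 members had a larger response in SjSS BMDMs and 0 were called, against 3.23% of all genes larger by the test and 0.614% called in either direction. At an unadjusted p under 0.05 there were 5, with a larger response in SjSS BMDMs for 3 and a smaller one for 2. DESeq2 passed 3, in either direction, and called 0. The 2 larger by edgeR's test were Nfkbie at 0.90 (SE 0.150, adjusted p = 0.00142) and Relb at 0.45 (SE 0.120, adjusted p = 0.0344). The adjusted p of Relb rose above 0.05 in 9 of 12 refits that left out 1 sample of this comparison, up to 0.0884 without replicate 2 of the B6 controls, and stayed below it without replicate 3 of the B6 controls, replicate 2 of the SjSS controls or replicate 1 of the CpG treated SjSS samples. Nfkbia, Nfkbiz, Rel and Nfkbib gave negative differences of -0.29, -0.33, -0.25 and -0.18 that did not pass edgeR's test. Nfkbia did pass by DESeq2's Wald test, as a smaller response in SjSS BMDMs, at -0.32 (adjusted p = 0.0376).

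**Figure D4:**
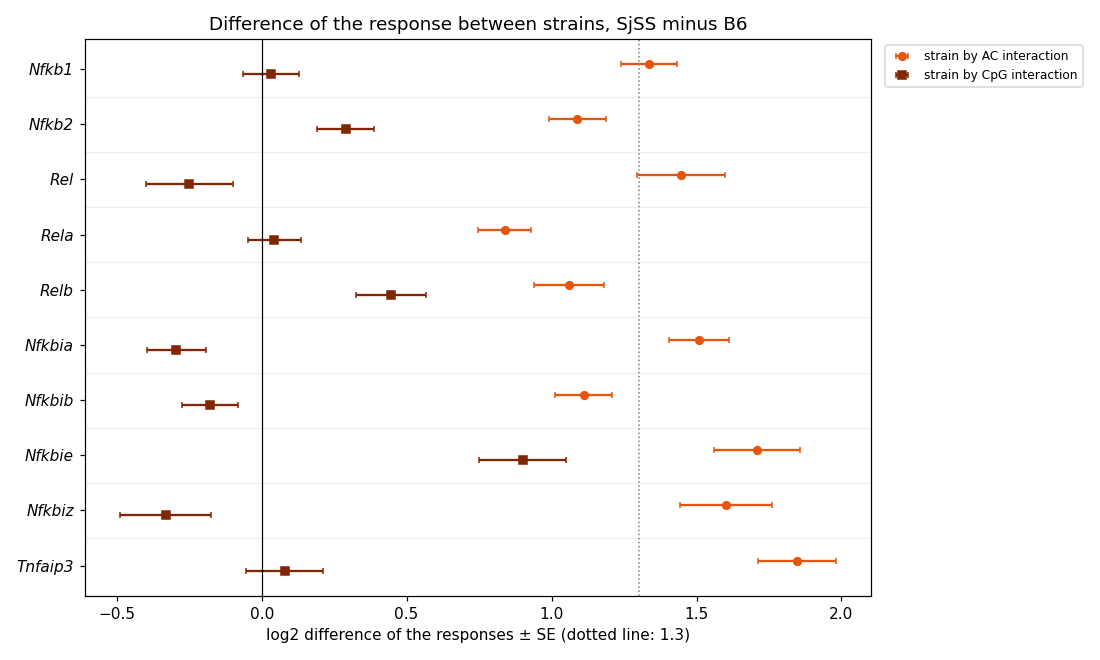
Difference between the strains in the log2 response of each of the 10 genes, SjSS minus B6, with its SE, for ACs (circles) and CpG (squares); the dotted line marks 1.3. The AC differences lie between 0.84 and 1.85, and the CpG differences between -0.33 and 0.90 on both sides of 0.

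The order of the groups by mean level showed where the members parted. In both strains the untreated group was the lowest, and SjSS controls were lowest of all 6 groups for all 10 genes, overlapping the B6 controls for Rel, Nfkbiz and Tnfaip3. AC treated SjSS BMDMs had the highest mean for 8 genes. For Nfkbia and Nfkbiz the order from the top was CpG treated B6, CpG treated SjSS, AC treated SjSS and AC treated B6 BMDMs, with no overlap between neighbours. AC treated B6 and CpG treated SjSS BMDMs, in the middle of the order, overlapped for Nfkb1, Nfkb2, Rela, Relb and Nfkbib.

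Other genes of the pathway were read from lists of kinases and adaptors upstream of NF-kB, of further brakes and of textbook targets. These lists, too, were chosen with earlier results of these data known. The shares of all genes called higher, 2.43% and 7.09% after ACs in B6 and SjSS BMDMs and 5.86% and 4.81% after CpG, are the background of each count that follows. Of 23 kinases and adaptors, 0 were called after ACs in B6 BMDMs by edgeR, where 9 rose and 3 fell by the test, 13 had an unadjusted p under 0.05 and DESeq2 called 0. In SjSS BMDMs 6 were called higher after ACs, led by the kinase gene Ripk2 at 2.95, the adaptor gene Myd88 at 2.13 and the inhibitory kinase gene Irak3 at 1.96. After CpG, 5 were called higher in B6 and 3 in SjSS BMDMs, among them Irak3 (2.49 and 2.74), Map3k8 (1.97 and 1.65) and Ikbke (1.87 and 2.16). None of the list was called lower in any of the 4 responses, although 3 to 6 genes fell by the test in each. The share of all genes that fell by the test was 18.3% to 29.8% in these responses. The list medians were 0.07, 0.30, 0.21 and 0.24 for ACs in B6 and SjSS and CpG in B6 and SjSS BMDMs.

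Of 21 further IkB proteins, A20 partners and other brakes, 3 were called higher after ACs in B6 and 6 in SjSS BMDMs, and 6 after CpG in each strain. Traf1, which encodes a signalling adaptor, led in all 4 at 3.36, 4.69, 4.40 and 3.94. Tnip3, which encodes an A20-binding protein, followed at 1.49, 2.63, 2.95 and 3.31. Next came Tnip1 after ACs in B6 BMDMs at 1.41, and in the other 3 responses Birc3, a ubiquitin ligase gene, at 2.11, 2.27 and 2.28. The list medians were 0.21, 0.73, 0.37 and 0.39. The interaction with ACs was called for 1 brake, Traf1 at 1.33, and for 3 kinases and adaptors, Ripk2 at 1.93, Myd88 at 1.43 and Map3k8 at 1.37. With 21 and 23 genes tested, and 4.76% of all genes called higher in this interaction, the count of called brakes was at the level of all genes. By the test alone the AC response was larger in SjSS BMDMs for 14 brakes and smaller for 3. For the kinases and adaptors these counts were 10 and 5. Of all genes, 19.6% had a larger and 18.3% a smaller response by the test. The list medians of this interaction were 0.47 for the brakes and 0.13 for the kinases and adaptors.

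The 29 tested target genes had the largest medians of the 3 lists. ACs called 19 higher in B6 and 25 in SjSS BMDMs, and CpG 21 in each, with 2 called lower after CpG in B6, Plau at -1.87 and Cd83 at -1.68. In that response 6.88% of all genes were called lower, so that the count of 2 was at the level of all genes. The cytokine genes Cxcl10 and Il6 led after ACs in both strains, at 7.24 and 5.58 in B6 and 10.99 and 10.21 in SjSS BMDMs, followed by Il12b (4.27) in B6 and by Nos2 (9.96), which encodes inducible nitric oxide synthase, in SjSS BMDMs. After CpG the leading genes were Il12b, Il6 and Il1b in both strains, at 11.12, 7.71 and 7.61 in B6 and 8.58, 8.0 and 5.82 in SjSS BMDMs. In the controls of each strain 7 of the 30 targets averaged under 1 CPM, and the size of a fold change from so low a level is imprecise. After ACs the SE was 0.375 and 0.355 for Il6 in B6 and SjSS, 0.537 for Il12b in B6 and 0.466 for Nos2 in SjSS BMDMs. The list medians were 1.62, 3.91, 4.38 and 3.41. The AC interaction was called higher for 23 of the 29 targets, and the CpG interaction was called lower for 4, Cxcl10, Ptgs2, Il1b and Il1a. Of all genes, 4.76% were called higher in the AC interaction and 0.329% lower in the CpG interaction.

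**Figure D5:**
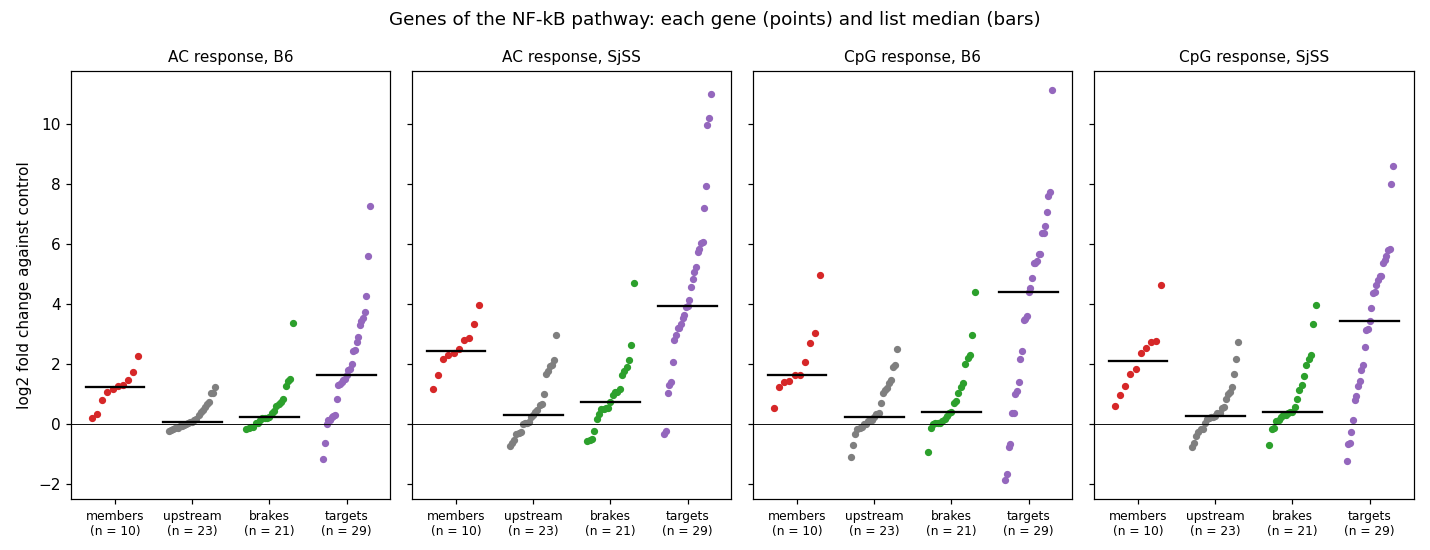
Log2 fold change of each tested gene (points) and the list median (bar) for the 10 NF-kB genes, 23 upstream kinases and adaptors, 21 brakes and 29 targets, in the 4 responses against untreated BMDMs of the same strain. The medians of the 10 genes, 1.21, 2.42, 1.62 and 2.09, lie between those of the brakes and those of the targets in each panel.

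For each member, the genes with the most alike pattern were found from the group means of log2 CPM, centred over the 6 groups, by the root mean square difference on the log2 scale. This likeness is a description over 6 groups. For the subunits the nearest were Tnfaip2 (0.109) and Fam83c (0.141) for Nfkb1, Met (0.173) and Icosl (0.181) for Nfkb2, Fam83c (0.113) and Cd14 (0.148) for Relb, Bcl2a1b (0.101) and Nampt (0.105) for Rel, and Gm37486 (0.0569) and Rnf14 (0.0629) for Rela. Fam83c was thus near both Nfkb1 and Relb. For the inhibitors they were 6530402F18Rik (0.118) and Pde4b (0.159) for Nfkbia, Rgs9 (0.0805) and Snx10 (0.118) for Nfkbib, Rnf144a (0.245) and Arl5c (0.278) for Nfkbie, Il2ra (0.180) and Camp (0.264) for Nfkbiz, and Icam1 (0.157) and Slamf7 (0.226) for Tnfaip3. Camp, a gene of the neutrophil list, was scarce, at 2.34 CPM or less in every sample, so that its pattern is imprecise. No member was among the 2 nearest genes of another.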

How the data were processed

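RNA of 18 BMDM samples was sequenced. The authors used STAR within Partek Flow, with mm10 as the reference, and deposited 1 table of estimated counts per gene from the Partek E/M method, which can split reads between genes that overlap or resemble each other. The processing notes also list DESeq2 version 3.13. The methods name an mm10 annotation, and its release is not given in the sources used here. Of the deposited values, 41.1% were not whole (tolerance 1e-06) and were rounded. Samples were matched by column name, and replicates differed by more than counting noise.

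Groups came from the sample titles. edgeR 4.0.16 (R 4.3.3, limma 3.58.1) was used with TMM scaling and filterByExpr, which kept 15789 of 20615 genes, and 1 quasi-likelihood fit of 18 samples with 6 group means left 12 residual degrees of freedom. The 11 comparisons were each adjusted by Benjamini-Hochberg over all tested genes, with thresholds of 0.05 for the adjusted p and 1.3 for the log2 fold change. CPM values are TMM scaled. Lengths are those of the longest principal transcript in GENCODE M21, and positions are as deposited, where 9 of the 10 ends lie 1 base past those of GENCODE. Promoters came from RefSeq. Total counts were 30688336 to 57139662 per sample, so that counting error was small for the members, at 487 counts or more.

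The members and lists were chosen with earlier results of these data known. All 10 members are named, with up to 3 called genes of each pathway list per response and direction and the 2 genes most alike in pattern to each member; the called interaction genes of the lists, and the targets called lower there, were named after their values were seen. The test was checked on simulated data. Alternatives were DESeq2 1.42.0, its size factors, other filters, other fold thresholds, fits without the groups a comparison does not use, a replicate block, fits that left 1 sample out, and, added after seeing the data, library totals and exon-union lengths.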

Additional observations from a re-analysis of the deposited data

Results flagged for a closer look

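The test of the difference between the strains picked out all 10 members for ACs and 2 for CpG. For ACs the SjSS minus B6 difference of the log2 responses was 1.34 for Nfkb1, 1.09 for Nfkb2, 1.45 for Rel, 0.84 for Rela and 1.06 for Relb among the subunits. It was 1.51 for Nfkbia, 1.11 for Nfkbib, 1.71 for Nfkbie, 1.60 for Nfkbiz and 1.85 for Tnfaip3. All 3 AC treated SjSS samples were above all 3 AC treated B6 samples for each of the 10, while in the controls the SjSS mean was the lower one for each. Non-overlap of the AC treated groups was found for 60.7% of all tested genes. For CpG the differences picked out were 0.90 for Nfkbie and 0.45 for Relb, edgeR adjusted p = 0.00142 and 0.0344.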

How the results depend on the processing

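The counts of called members were equal with DESeq2, with its size factors, with no filter or a filter of 10 counts in 3 samples, with fits of the compared groups alone, and in all 11 comparisons with the replicate number as a block (all 8 that could be fitted with a block within strain). With no fold threshold, 9 members passed in the AC response of B6, 9 in AC against CpG in B6 and 10 in SjSS, 6 between the strains in controls, 10 after ACs and 7 after CpG, 10 in the strain by AC and 2 in the strain by CpG interaction. With a fold change over 1.3 these were 8, 7, 10, 4, 10, 3, 10 and 2. With library totals, a setting added after seeing the data, 1 member was called in AC against CpG in SjSS, 0 between the strains after ACs and 2 in the strain by AC interaction (8 in the AC response of SjSS, 6 in the CpG response of B6); the cause was not tested, and the median of all genes moved by -0.29, -0.30 and -0.34 in these. Leaving out 1 sample in turn gave 3 to 5 called members in the AC response of B6, 5 without replicate 1 of AC treated B6, 2 to 3 between the strains after ACs and 5 to 6 in the strain by AC interaction, and equal counts in the other 8.

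No member changed direction with a call. Of the members' fold changes, 839 kept their side of the threshold under settings other than leaving out a sample, 7 passed it newly and 4 lost it, and with 1 sample left out 761 kept it, 3 passed newly and 16 lost it, 9 of these Relb in the strain by CpG interaction. Same-numbered samples of different treatments had correlated deviations of 0.0198 to 0.264 in B6 and 0.0272 to 0.142 in SjSS, over 0.1 in 5 of 9 and 4 of 9 pairs, and 16 of 18 samples correlated best with their own number. This hints at pairing by number, and the study's figure legend names 3 mice per strain. The labels do not state which samples share a mouse and not every pair was over 0.1, so that the fits without the block were kept. Control and CpG treated B6 BMDMs were the one comparison with all 3 pairs over 0.1, and there the block changed no call of a member. The replicate block gave equal counts of called members and brought Tnfaip3 between the strains in controls (adjusted p = 0.0458 by edgeR), and Relb (0.04) and Nfkbie (0.0346) after CpG, below 0.05.

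Subunit shares moved by more than the SD with the length used, except that of Relb by the union of exons in CpG treated B6 and AC treated SjSS BMDMs. In the order B6 control, AC, CpG, SjSS control, AC, CpG, with counts not divided by length, Nfkb1 held 37.5, 40.1, 41.7, 37.7, 46.1 and 40.6%. Nfkb2 held 18.3, 28.6, 27.7, 15.8, 23.8 and 27.6%. Rel held 10.3, 5.57, 8.63, 12, 8.02 and 8.0%. Rela held 23.6, 13.9, 12.4, 25.7, 12.3 and 13.1%. Relb held 10.2, 11.8, 9.62, 8.81, 9.70 and 10.7%. With the union of all exons, also added after seeing the data, Nfkb1 held 16.6, 18.6, 20.2, 16.6, 23 and 19.3%. Nfkb2 held 21.2, 34.9, 35.2, 18.3, 31.3 and 34.4%. Rel held 7.35, 4.17, 6.75, 8.53, 6.48 and 6.14%. Rela held 40.9, 25.4, 23.4, 44.5, 24.2 and 24.4%. Relb held 14, 17, 14.4, 12, 15 and 15.7%. Under each of the 3 lengths the share of Rela was lower in every treated group than in the controls of its strain. Depth did not limit the members, but 3 samples per group limit the precision.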

Other observations

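The amount of inhibitor transcript per subunit transcript was added after the data were seen. Nfkbia, Nfkbib and Nfkbie together, in CPM per kb, came to 0.693 ± 0.0133 times the 5 subunits in B6 controls (SD, n = 3), 0.668 ± 0.0245 after ACs and 1.77 ± 0.0425 after CpG. In SjSS BMDMs the ratio was 0.727 ± 0.0418 in controls, 0.905 ± 0.0451 after ACs and 1.46 ± 0.0545 after CpG. The CpG treated samples of both strains were above all other samples. The AC treated samples of SjSS BMDMs, at 0.877 to 0.957, were above their controls, at 0.697 to 0.775, while those of B6 BMDMs, at 0.649 to 0.695, overlapped their controls, at 0.682 to 0.707.

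The members lie on 8 chromosomes. Of 49 tested genes within 5 Mb of Nfkb1, on chromosome 3, 0 were called between the strains in untreated BMDMs by edgeR, 7 passed the test without the fold threshold, 14 had an unadjusted p under 0.05 and DESeq2 called 1. Near Nfkbie, on chromosome 17, 9 of 98 were called by edgeR, where 2.01% of all tested genes were. Near the other 8 members, with 30 to 214 tested genes each, 0 to 2 were called. These counts were added after the data were seen.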
